A study of Arabidopsis thaliana with 4 samples.

Results

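The loci described here lie in the DNA around the centromeres of the 5 Arabidopsis chromosomes and had a value above 0 in RNA immunoprecipitation libraries. They were the rows of each deposited table that spanned at least 300 bp, had FPKM (fragments per kilobase of locus, scaled to library depth) above 0 and below the most common FPKM of 75 bp loci in that library, and fell inside 5 windows. In TAIR10 coordinates the windows ran from 11.5 to 17.7 Mb on chromosome 1, from 1.1 to 7.2 Mb on chromosome 2, from 10.3 to 17.3 Mb on chromosome 3, from 1.5 to 6.3 Mb on chromosome 4 and from 9.0 to 16.0 Mb on chromosome 5, or 31.1 Mb in all. There were 2886 and 2876 such loci in the CLF RIP libraries and 3346 and 3322 in the control RIP libraries, of 67357, 67210, 67292 and 67135 rows in the 4 tables. The loci were thus chosen by their measured FPKM, so their number and level are given as a description.

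CURLY LEAF (CLF) is a histone methyltransferase of Polycomb repressive complex 2, which deposits H3K27me3 mainly on genes in euchromatin. Pericentromeric heterochromatin is packed with transposable elements and repeats, and in plants it is held silent by DNA methylation and H3K9 methylation rather than by Polycomb. Genes are sparse near the centromere and become more frequent toward the chromosome arms.

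The 2 CLF RIP libraries came from clf-28 plants that carried Myc-CLF, a tagged protein that rescues the mutant, and the 2 control RIP libraries came from wild-type plants of Col-0. All plants were 3 weeks old, in the Columbia background, and grown on half-strength MS medium with sucrose in long days. Nuclei of crosslinked material were used, and every library was taken with an anti-Myc antibody, so the control RIP holds RNA recovered without a tagged protein. The promoter of the transgene and the number of lines were not given in the sources used here, and no source states whether the libraries in a group stem from different plants, so p-values measure the spread between these libraries, which may be technical. The groups follow the sample labels. The deposited tables' own names, and the names of all their 48378, 48178, 49497 and 49317 serially numbered loci, give the opposite groups, so every higher and lower in the text would swap if the labels are mistaken.

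Depth differed between the groups. Read from the steps of low values, the scaling depth, in units of 1e6 fragments, was 4.27 and 4.26 in the CLF RIP libraries and 10.0 and 9.72 in the control RIP libraries. A single read on an unspliced locus of 300 bp was worth 2.45 and 2.46 FPKM in the CLF RIP libraries, against 1.04 and 1.08 FPKM in the control RIP libraries. Deeper libraries can list more loci above 0, and values given in reads below are estimates from FPKM and span, too high for spliced genes. Messenger RNAs of photosynthesis that mark green shoot tissue were lower in the CLF RIP: RBCS1A stood at 406 and 396 FPKM in the CLF RIP and at 1308 and 1290 FPKM in the control RIP. All 3 such markers (RBCS1A, LHCB1.3 and RCA) passed the test in this direction, and the root marker PYK10 did not pass (2.79 and 4.43 FPKM in the CLF RIP, 2.86 and 2.72 FPKM in the control RIP). The CLF transcript had 4.24 and 25.7 FPKM in the CLF RIP and 25.9 and 27.1 FPKM in the control RIP.

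Around the centromeres most loci were listed at 0 in these tables, which can also be a failed estimate. The sources used here do not say how reads that align to several copies were counted. A value of 0 in repeats is therefore not shown to be an absence of RNA. Of the loci of at least 300 bp inside the windows, 61.1% and 60.9% were listed at 0 in the CLF RIP libraries and 55.8% and 56.2% in the control RIP libraries. Outside the windows the shares listed at 0 were 19.2% and 19.3% in the CLF RIP and 16.0% and 16.2% in the control RIP. Loci with a value above 0 were spaced at 92.8 and 92.5 per Mb inside the windows in the CLF RIP and at 107.6 and 106.8 per Mb in the control RIP. The arms held 263.5 per Mb in both CLF RIP libraries and 280.0 and 278.3 per Mb in the control RIP libraries.

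The density, taken over all 5 windows, was lowest toward their centres. In the innermost 1 Mb on either side of the centre, 39.0 and 39.3 loci per Mb were detected in the CLF RIP and 50.4 and 52.3 per Mb in the control RIP. Between 2 and 3 Mb from the centre the densities were 155.2 and 156.7 per Mb in the CLF RIP and 171.9 and 171.1 per Mb in the control RIP. At 5 to 6 Mb, beyond the windows, they were 251.8 and 252.8 per Mb in the CLF RIP and 272.0 and 272.4 per Mb in the control RIP. The share of loci detected changed as well. It was 19.1% and 19.4% within 1 Mb in the CLF RIP and 24.3% and 25.1% in the control RIP, and 78.0% and 78.2% at 5 to 6 Mb in the CLF RIP and 81.7% in both control RIP libraries.

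**Figure D1:**
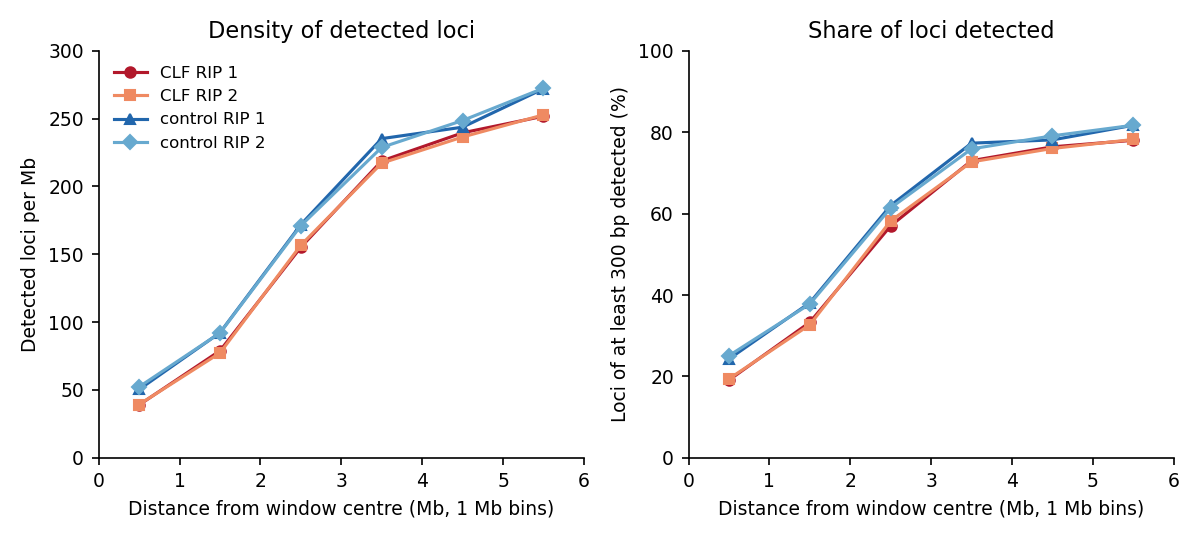
Detected loci of at least 300 bp per Mb (left panel) and the share of such loci that were detected in percent (right panel), in bins of 1 Mb by distance from the window centre, over the 5 chromosomes. Each line is 1 library; all 4 climb outward, from 39.0 to 52.3 loci per Mb in the innermost bin to 251.8 to 272.4 per Mb in the outermost.

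Loci just inside and just outside the thresholds of the rule were set side by side without a test. The highest FPKM among the loci kept in the windows was 8680 and 16133 in the CLF RIP libraries, below the excluding value of 25693 and 25765 (1 read on 75 bp), and 3528 and 2560 in the control RIP libraries, below 10940 and 11294. At or above that value lay 11 and 17 loci in the CLF RIP and 16 and 12 in the control RIP, which were left out, the lowest of them at the excluding value itself. Loci within 20 bp above the span limit had a median of 14.4 and 18.2 FPKM in the CLF RIP and 6.29 and 8.84 FPKM in the control RIP, and those within 20 bp below it 18.8 and 19.6 FPKM in the CLF RIP and 7.31 and 9.13 FPKM in the control RIP. In the 0.5 Mb just inside the window edges 164.8 and 166.0 loci per Mb were detected in the CLF RIP and 182.6 and 180.4 in the control RIP. In the 0.5 Mb just outside, the numbers were 222.6 and 225.6 per Mb in the CLF RIP and 236.4 and 233.0 per Mb in the control RIP.

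Loci that were detected near the centromeres were somewhat lower than those of the arms. Their median was 9.47 and 9.17 FPKM in the CLF RIP and 5.37 and 5.66 FPKM in the control RIP. Outside the windows the median was 10.8 and 10.7 FPKM in the CLF RIP and 6.94 and 7.02 FPKM in the control RIP. Many rested on few reads. At most 5 estimated reads stood behind 19.6% and 20.7% of the loci in the CLF RIP and 20.4% and 19.4% in the control RIP, against 10.9% and 10.8% outside the windows in the CLF RIP and 8.94% and 9.03% in the control RIP. No detected locus in the windows fell below 1 read in any library.

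Each of the 5 windows held detected loci. Chromosome 2 had the most detected loci per Mb in all 4 libraries, with 101.0 and 99.8 in the CLF RIP and 119.0 and 119.5 in the control RIP. Chromosome 3 had the fewest, with 88.3 and 85.9 per Mb in the CLF RIP, and in the control RIP it had 103.1 and 98.9 per Mb, beside 99.8 and 100.5 per Mb on chromosome 1. Because each table numbers its own loci, libraries were joined where loci overlapped reciprocally by at least 80% in every pair. This left out 885 and 831 of the detected loci in the CLF RIP and 1041 and 1056 in the control RIP.

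In the windows 6529 loci could be followed through all 4 libraries. Of these, 3629 (55.6%) were listed at 0 in every library, against 14.7% of 21623 joined loci outside. A further 710 were above 0 in 1 library alone, 311 in 2, 233 in 3 and 1646 in all 4. The test needed at least 1 FPKM in at least 2 libraries, which 1510 of the 6529 (23.1%) met, against 65.7% outside the windows. The 231 loci that were above 0 in all 4 libraries but did not meet it stayed untested. Among the tested loci the lower level seen over all detected loci did not hold. Their median of the mean FPKM over the 4 libraries was 10.58 in the windows and 10.25 outside.

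Most of the joined loci in the windows were pseudogenes in the RefSeq table of TAIR10.1, a class that in Arabidopsis heterochromatin includes many annotated transposable element genes. The table names no element class, so families are not given here. Of 3618 pseudogenes in the windows, 72.6% were listed at 0 in every library and 6.08% were above 0 in all 4. The 906 pseudogenes outside were listed at 0 throughout in 49.1% of cases and above 0 in all 4 in 21.4%. Protein-coding loci had the same order: in the windows 34.3% of 2830 were listed at 0 throughout and 49.1% were above 0 in all 4, against 13.2% and 70.6% of 20374 outside. Of the 57 noncoding RNA loci, 59.6% were above 0 in all 4 libraries, against 68.9% of 309 outside.

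The make-up of the windows changed with distance. Within 1 Mb of the centre 1631 of 1920 joined loci (84.9%) were pseudogenes, between 1 and 2 Mb 60.3%, and farther out 28.2%. The share of protein-coding loci that met the filter was 37.2% within 1 Mb, 41.8% between 1 and 2 Mb and 51.2% beyond. For pseudogenes it was 3.25%, 3.57% and 5.60%. The tested loci were mostly protein-coding, 1334 of 1510 (88.3%), with 138 pseudogenes, 36 noncoding RNAs and 2 loci without a gene class. The chromatin state was not measured, and the loci that carried the signal are called pericentromeric here by their position alone.

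**Figure D2:**
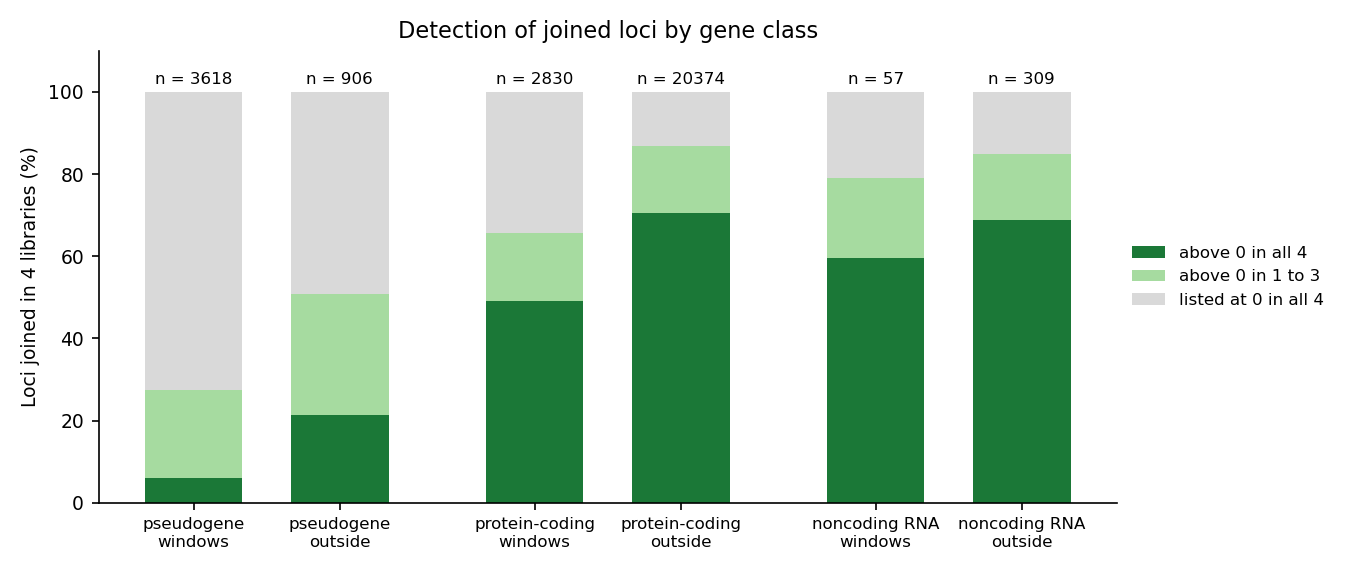
Share in percent of loci joined in 4 libraries that were above 0 in all 4, above 0 in 1 to 3, or listed at 0 in all 4, for 3 gene classes inside and outside the windows, with the number of loci above each bar. Pseudogenes in the windows have the largest share listed at 0 (72.6%).

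The windows held a minor part of the RNA in both groups. Their loci made up 14.2% and 16.2% of the summed FPKM of all detected nuclear loci of at least 300 bp in the CLF RIP (15.2% ± 1.43, SD, n = 2) and 13.1% in both control RIP libraries (13.1% ± 0.0450, SD, n = 2). Both CLF RIP values lay above both control RIP values, by 2.08 percentage points on average. The two-sided exact permutation test gave p = 0.33, the smallest that 2 against 2 libraries allow. It cannot decide between the groups, and FPKM also chose the loci, so the share is a description. The difference was 1.07 points without CLF RIP 2 and 3.09 points without CLF RIP 1. Without the mitochondrial insertion described below it was 3.39 points. At a span of at least 500 bp the groups overlapped, with 11.6% and 16.1% in the CLF RIP and 12.2% and 11.9% in the control RIP. The direction did not hold in the joined loci: in loci followed through all 4 libraries the share was 11.2% and 14.3% in the CLF RIP and 13.3% and 12.3% in the control RIP. Loci more than 10-fold apart within a group were then left out as well, a step chosen after seeing the data. The share was then 11.5% in both CLF RIP libraries and 12.7% and 12.6% in the control RIP, a difference of -1.16 points.

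The sums turned on loci that were high in a single library. AT1G33170, on chromosome 1 from 12027084 to 12030539, had 16133 FPKM in CLF RIP 2 and 2.77 FPKM in CLF RIP 1, against 3.82 and 3.90 FPKM in the control RIP. WOX4, a homeobox gene of the vascular cambium, had 4432 FPKM in CLF RIP 1 and 0.807 FPKM in CLF RIP 2, against 1.72 and 2.01 FPKM in the control RIP. ACS3, a pseudogene of the family that makes the ethylene precursor, had 0.784 and 7217 FPKM in the CLF RIP and 505 and 1.03 FPKM in the control RIP. In each of these loci the 2 libraries of the CLF RIP were far apart, and none passed the test (adjusted p = 0.47, 0.50 and 0.85). AT3G44020, the most abundant locus of the chromosome 3 window, was of the same kind, with 2.08 and 1469 FPKM in the CLF RIP and 5.27 and 3.43 FPKM in the control RIP. Of the 1510 tested loci, 20 (1.32%) differed by more than 10-fold between the CLF RIP libraries and 17 (1.13%) between the control RIP libraries.

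The share of detected loci that lay in the windows was lower in the CLF RIP, at 11.06% and 11.03%, against 11.95% and 11.94% in the control RIP libraries, with no overlap. The difference was -0.90 percentage points, given without a test since FPKM above 0 also chose the loci. It stayed below 0 at a minimum of 5 FPKM (10.2% and 10.0% in the CLF RIP, 10.4% and 10.6% in the control RIP). The CLF RIP libraries were also the shallower ones, and the part of depth in this difference was not tested.

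Single loci were then compared between both groups, with p adjusted over all 15709 loci tested inside and outside the windows. In the windows 39 of 1510 loci (2.58%) passed, 19 of them higher and 20 lower in the CLF RIP. Over all loci 1.58% passed, 0.859% higher and 0.719% lower, and outside the windows 1.47%. Of the 39 calls in the windows, 8 of the higher and 5 of the lower loci were listed at 0 in both libraries of a group, so they had met the filter through the other group alone. At an unadjusted p under 0.05 there were 412 loci in the windows (27.3%), close to the 25.6% over all loci. The median log2 fold change was 0.19 in the windows, 0.26 outside and 0.25 over all loci, so relative to all loci those of the windows lay slightly lower. With quantile normalization the medians were -0.04 in the windows and 0.02 outside, and with median-of-ratios scaling -0.06 and 0.01. Median-of-ratios scaling also split the calls in the windows differently, into 15 higher and 28 lower. Outside the windows it gave 100 higher and 146 lower, in place of 116 and 93, so this shift was not particular to the windows.

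The groups did not overlap, with the CLF RIP above, at 597 loci (39.5%; 41.1% over all loci), and with the CLF RIP below at 333 (22.1%; 18.9% over all loci). The calls in the windows were spread over all chromosomes. The chromosome 1 window had 1 higher and 4 lower, chromosome 2 had 6 and 11, chromosome 3 had 2 and 3, chromosome 4 had 4 and 1, and chromosome 5 had 6 and 1. Within 1 Mb of the centre 3 of 161 tested loci were higher and 9 lower, between 1 and 2 Mb 9 of 401 were higher and 3 lower, and beyond that 7 of 948 were higher and 8 lower. The stretch of inserted mitochondrial DNA on chromosome 2, described below, lies within 1 Mb of the centre. It gave 8 of the 9 lower calls and 1 of the 3 higher calls there, and so 8 of the 11 lower calls on chromosome 2. No locus passed, inside or outside the windows, when any 1 of the 4 libraries was left out (limma, 0 of 1510 in the windows each time, with 199 to 421 at an unadjusted p under 0.05). The spread then comes from the pair of the other group alone, and the lone library is assumed to vary like that pair. Another filter asked for a value above 0 in all 4 libraries, in place of the minimum of 1 FPKM in 2. With it 13 of 1646 loci (0.79%) were called, 5 higher and 8 lower, against 0.425% outside the windows.

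**Figure D3:**
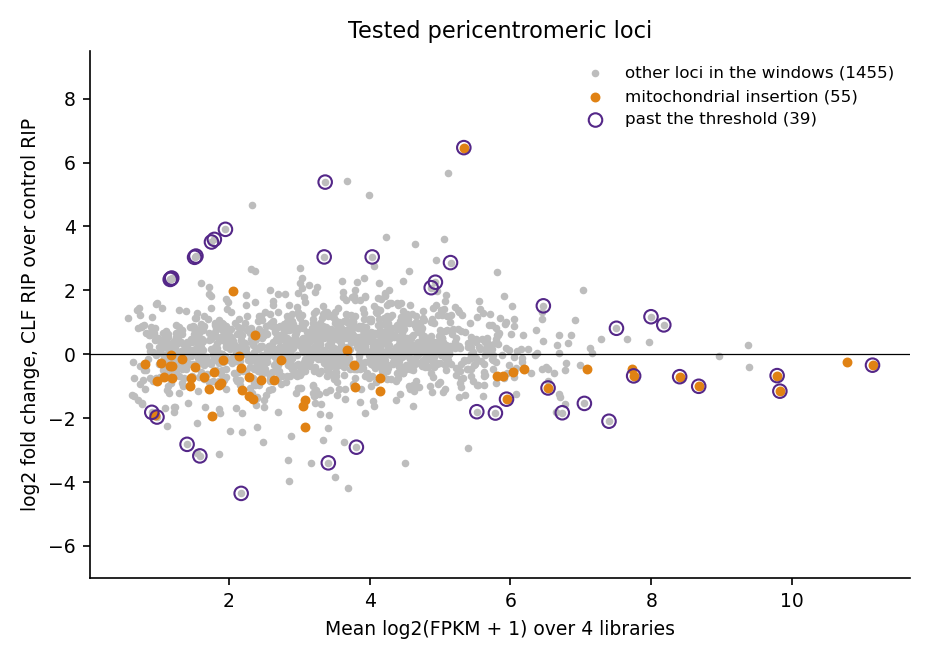
log2 fold change of CLF RIP over control RIP against the mean log2(FPKM + 1) for the 1510 tested loci of the windows, each point 1 locus, with the 55 loci of the mitochondrial insertion in orange and the 39 loci past the threshold ringed. Of the 55 orange points 51 lie below 0.

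Tested loci in the mitochondrial DNA that is inserted near the centromere of chromosome 2 in Col-0 were mostly lower in the CLF RIP. This stretch, taken here as 3.2 to 3.6 Mb, holds copies of mitochondrial genes in nuclear DNA. It was bounded by position alone, so not every locus counted in it, such as those of ABCC13 and MCM5, need be such a copy. It had 106 and 105 detected loci in the CLF RIP and 130 and 137 in the control RIP. Their summed FPKM was 10628 and 11506 in the CLF RIP and 15013 and 13917 in the control RIP. That was 12.2% and 10.6% of the summed FPKM of the windows in the CLF RIP and 24.3% and 23.2% in the control RIP. The whole windows summed to 87158 and 108497 FPKM in the CLF RIP, against 61751 and 59964 in the control RIP. The CLF RIP sums include loci that were high in a single library. Over all detected loci of the insertion the median FPKM was higher in the CLF RIP, at 10.6 and 9.24 against 5.39 and 4.76. Of 55 tested loci in the insertion 51 lay below 0 and 4 above, with a median log2 fold change of -0.70. As lower 8 passed (14.5%; 0.719% over all loci) and as higher 1 (1.82%; 0.859% over all loci). The groups did not overlap, with the CLF RIP below, at 39 of the 55 (70.9%; 18.9% over all loci).

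AT2G07675, on chromosome 2 from 3270410 to 3270787, was the most abundant locus of the windows that had like values in both libraries of a group. It had 1993 and 2013 FPKM in the CLF RIP and 2522 and 2560 FPKM in the control RIP. The groups were apart by more than their spread, and the log2 fold change was -0.34 ± 0.02 (SE, adjusted p = 0.028). AT2G07732, the next in level in the insertion, had 1567 and 1644 FPKM in the CLF RIP and 1930 and 1872 FPKM in the control RIP, also without overlap, but did not pass (adjusted p = 0.079).

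Other loci of the insertion differed more. AT2G07688, a transcribed pseudogene, had 591 and 622 FPKM in the CLF RIP and 1368 and 1339 FPKM in the control RIP (log2 fold change -1.16 ± 0.04). AT2G07751 had 709.9 and 688 FPKM in the CLF RIP and 1126 and 1099 FPKM in the control RIP. In both, each CLF RIP library was below each control RIP library. AT2G07689, at 285 and 290 FPKM in the CLF RIP and 589 and 565 FPKM in the control RIP, also passed as lower (adjusted p = 0.028). AT2G07687, which encodes a copy of a subunit of cytochrome c oxidase, had 268 and 261 FPKM in the CLF RIP and 432 and 429 FPKM in the control RIP. AT2G07674, AT2G07711 and AT2G07815 also passed as lower, with log2 fold changes of -1.41, -0.68 and -1.06.

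The locus of the insertion that passed as higher was AT2G07706, with 350 and 411 FPKM in the CLF RIP and 2.61 and 4.13 FPKM in the control RIP (log2 fold change 6.47 ± 0.25, adjusted p = 0.028). It was the largest fold change of any locus past the threshold in the windows. It lay inside a second listed locus of 27310 bp in CLF RIP 1, of 27146 bp in control RIP 1 and of 27542 bp in control RIP 2, at 298, 164 and 164 FPKM. In CLF RIP 2 a locus of 8739 bp at 298 FPKM overlapped its end. How reads were divided among overlapping loci was not given in the sources used here.

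All 141 loci on the mitochondrial genome and all 130 on the plastid genome were listed at 0 in each of the 4 tables, so a nuclear copy and its mitochondrial original cannot be told apart in these values. Without the insertion, 30 of 1455 loci of the windows (2.06%) were called, 18 higher and 12 lower, against 1.42% outside the windows. The median log2 fold change in the windows was then 0.22. The tested loci within 1 Mb of the centre then had a median of 0.10 rather than -0.14, beside 0.18 between 1 and 2 Mb and 0.24 farther out.

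**Figure D4:**
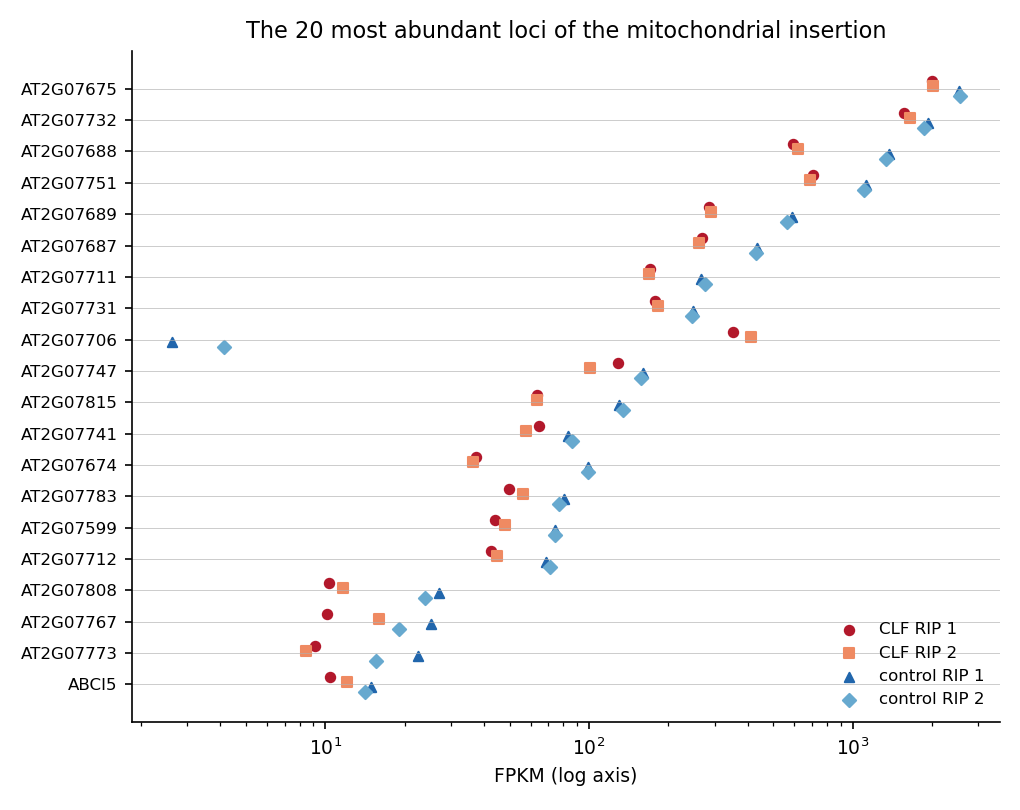
FPKM in each of the 4 libraries (log axis) for the 20 most abundant tested loci of the mitochondrial insertion on chromosome 2. The CLF RIP points lie left of the control RIP points at AT2G07675 (1993 and 2013 against 2522 and 2560 FPKM) and at most other loci, and far to the right of them at AT2G07706.

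Pseudogenes outside the insertion gave 3 calls, 2 of them at loci that overlapped no other listed locus of at least 300 bp. AT3G43828, on chromosome 3 from 15677383 to 15678009, had 46.4 and 46.0 FPKM in the CLF RIP and 4.76 and 4.67 FPKM in the control RIP, or 83 and 82 estimated reads against 20 and 19. Libraries of a group differed by 1 read, and the log2 fold change was 3.05 ± 0.19 (adjusted p = 0.033). AT4G06477, on chromosome 4 from 3060975 to 3065294, went the other way, with 1.88 and 2.74 FPKM in the CLF RIP and 34.4 and 32.9 FPKM in the control RIP (log2 fold change -3.40 ± 0.24, adjusted p = 0.034). The third, AT3G46384, had 0 in both CLF RIP libraries, against 3.10 and 2.72 FPKM in the control RIP. It met the filter through the control RIP alone, and it overlapped another locus in the CLF RIP tables alone.

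Of the 114 pseudogenes tested outside the insertion, 58 (50.9%) had the CLF RIP above the control RIP without overlap and 19 (16.7%) had it below, against 41.1% and 18.9% over all loci. Among the 135 tested pseudogenes outside the windows the shares were 51.1% above and 12.6% below, so the share above was not particular to the windows. Most of the 58 and the 19 did not pass. AT2G11240 had 86.1 and 82.7 FPKM in the CLF RIP and 38.0 and 38.6 FPKM in the control RIP (adjusted p = 0.062). AT1G35110 had 49.3 and 54.0 FPKM in the CLF RIP and 18.4 and 15.8 FPKM in the control RIP (adjusted p = 0.066). SADHU1-1, a retroposon of the Sadhu family, had 37.8 and 38.5 FPKM in the CLF RIP and 25.6 and 27.4 FPKM in the control RIP (adjusted p = 0.18). AT5G35935 was the other way round, with 4.69 and 4.78 FPKM in the CLF RIP and 16.6 and 15.5 FPKM in the control RIP (adjusted p = 0.066). These 4 pseudogenes were chosen after their values were seen. Among all 138 tested pseudogenes of the windows 1 passed as higher and 4 as lower, the median log2 fold change was 0.17, and 58 had an unadjusted p under 0.05 (25.6% of all loci did). Outside the windows 1 of 135 passed as higher and none as lower (48 at an unadjusted p under 0.05, limma), with a median of 0.32.

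Loci often used as readouts of lost silencing were low or listed at 0 in both groups. QQS, an orphan gene on chromosome 3 whose expression depends on DNA methylation of nearby repeats, had 3.72 and 3.73 FPKM in the CLF RIP and 3.43 and 2.18 FPKM in the control RIP. One control RIP library was close to both CLF RIP libraries and the other was lower, and the gene did not pass (log2 fold change 0.33 ± 0.25, adjusted p = 0.46). The DNA transposons AtMu1 (AT4G08680) and CACTA1 (AT2G12210) were listed at 0 in all 4 libraries. ATCOPIA78 (AT3G32415), a heat-activated copia retrotransposon also called ONSEN, had 0 and 0.0640 FPKM in the CLF RIP, with 0 and 0.0561 FPKM in the control RIP, the value of 1 and 2 estimated reads. The transposon AT2G15810 could not be followed, since it had its own identifier in CLF RIP 1 alone, at 4.88 FPKM.

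None of the tested genes on a list tied to heterochromatin silencing passed the threshold, which does not show that they were alike. The list of 25 genes held DNA methyltransferases such as MET1 and CMT3, the remodeller DDM1, H3K9 methyltransferases, and components of RNA-directed DNA methylation. It also held the demethylases ROS1 and IBM1, so not every gene on it acts to silence. Their log2 fold changes were 0.40 and 0.65, and neither passed. Of these 23 could be joined, all but HDA6 and HTA7, and 18 were tested. There were 0 calls (limma; 2 had an unadjusted p under 0.05), 11 lay above 0 and 7 below, and the median log2 fold change was 0.12, against 0.25 over all loci. VIM1, which binds methylated DNA and is needed to maintain CG methylation, had 1.70 and 1.58 FPKM in the CLF RIP and 3.90 and 3.55 FPKM in the control RIP (adjusted p = 0.12). SUVH6, an H3K9 methyltransferase, had 9.55 and 9.67 FPKM in the CLF RIP and 4.90 and 5.45 FPKM in the control RIP (adjusted p = 0.14). In both genes the groups did not overlap.

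Protein-coding loci made up 17 of the 19 calls that were higher and 16 of the 20 that were lower. They were also 88.3% of the loci tested in the windows. Their share called was 2.47%, close to the 2.58% of all loci tested there. LHCB2.2, an antenna protein of photosystem II, had 29.3 and 27.1 FPKM in the CLF RIP and 103 and 104 FPKM in the control RIP (log2 fold change -1.84 ± 0.14, adjusted p = 0.036). The locus that overlaps RBCS3B, a small subunit gene of Rubisco named here after its values were seen, had 82.7 and 71.2 FPKM in the CLF RIP and 226 and 224 FPKM in the control RIP (adjusted p = 0.036). OHP2, a light-harvesting-like protein, had 0 in both CLF RIP libraries, against 21.6 and 17.6 FPKM in the control RIP, and so met the filter through the control RIP alone. The green shoot markers RBCS1A, LHCB1.3 and RCA outside the windows were lower too. LHCB2.2 and the RBCS3B locus were named by their values, and OHP2 could only come out lower, so the shared direction carries no weight. Whether the difference in those markers had a part in the result was not tested. In RNA immunoprecipitated from the nuclei of many cells, fewer cells of a type, less RNA per cell and lower recovery cannot be told apart.

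XTH4, an enzyme that cuts and rejoins xyloglucan in the wall, had 80.2 and 81.1 FPKM in the CLF RIP and 353 and 344 FPKM in the control RIP (log2 fold change -2.10 ± 0.07, adjusted p = 0.028). NIT2, a nitrilase, had 3.66 and 4.64 FPKM in the CLF RIP and 39.6 and 35.6 FPKM in the control RIP (log2 fold change -2.91 ± 0.22, adjusted p = 0.038). SERK4, a co-receptor kinase of brassinosteroid and immune signalling, had 56.0 and 55.0 FPKM in the CLF RIP and 204 and 196 FPKM in the control RIP (log2 fold change -1.83 ± 0.09, adjusted p = 0.028). In all 3 the libraries of a group were close and the groups far apart. Each overlapped a shorter listed locus in at least 3 libraries. AT3G45620, AT1G44920 and AT1G43310 were listed at 0 in both CLF RIP libraries and at 8.51 and 7.68, 6.72 and 5.46, and 2.49 and 2.57 FPKM in the control RIP.

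Among the loci that were higher in the CLF RIP, AT5G35926 followed AT2G07706 in size, with 49.1 and 88.4 FPKM in the CLF RIP and 0.955 and 0.307 FPKM in the control RIP (log2 fold change 5.39 ± 0.42, adjusted p = 0.038). It lies on chromosome 5 from 14062676 to 14065706 and overlapped no other locus of at least 300 bp. AT5G35680 had 94.1 and 95.8 FPKM in the CLF RIP and 11.6 and 12.7 FPKM in the control RIP (log2 fold change 2.87 ± 0.17, adjusted p = 0.030). AT5G39940 had 28.8 and 28.0 FPKM in the CLF RIP and 2.47 and 2.66 FPKM in the control RIP (log2 fold change 3.05 ± 0.19, adjusted p = 0.033). In these 3 loci every CLF RIP value was far above every control RIP value.

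Others were listed at 0 in both control RIP libraries and met the filter through the CLF RIP alone, so their values are a description. HDA2, a histone deacetylase, had 6.52 and 8.41 FPKM in the CLF RIP, and RPA1A, a large subunit of the single-strand DNA binding protein RPA, had 6.01 and 8.56 FPKM. AT5G35995 had 13.5 and 14.5 FPKM in the CLF RIP, and the long noncoding RNA AT1G36992 had 12.9 and 8.36 FPKM there. AT4G08876 had 11.1 FPKM in both CLF RIP libraries, from 6 estimated reads each. No fold is given for these, since an exact 0 in these tables can be a failed estimate.

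Many of these loci overlapped others in the tables. Of the 39 loci called in the windows 26 (66.7%) overlapped another locus of at least 300 bp in at least 1 library, against 57.7% of the 1510 tested. Among the calls, 10 of 13 with 1 group listed at 0 throughout overlapped another locus, and 16 of 26 with all values above 0 did. Among all 28 tested loci with 1 group listed at 0 it was 14 (50.0%). The neighbours were themselves expressed: the locus that shared its end with HDA2 had 18.0 and 13.2 FPKM in the CLF RIP and 29.0 and 38.8 FPKM in the control RIP. The locus next to OHP2 had 44.7 and 23.5 FPKM in the CLF RIP and 22.8 and 47.4 FPKM in the control RIP. The part of these overlaps in the calls was not tested. With overlapping loci left out, which was chosen after seeing the data, 28 of 639 loci (4.38%) were called, 11 higher and 17 lower. Outside the windows the share called rose as well, to 3.51%.

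**Figure D5:**
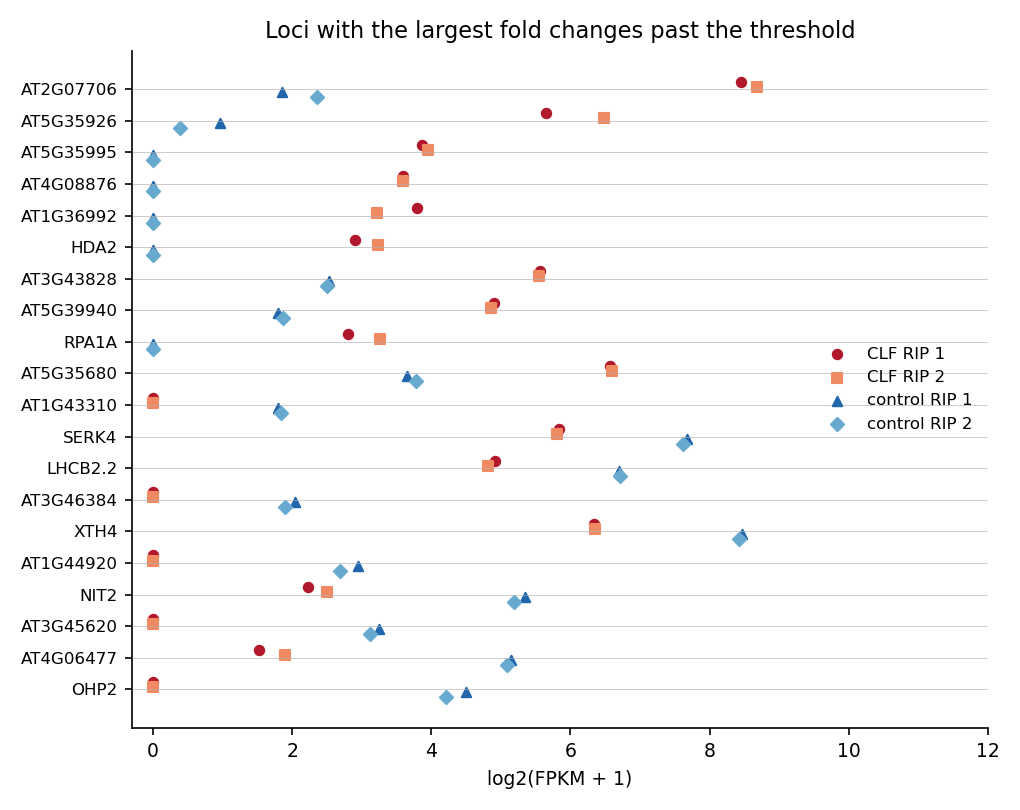
log2(FPKM + 1) in each of the 4 libraries for the 10 loci with the largest log2 fold change in each direction past the threshold, ordered from the highest (AT2G07706, 6.47) at the top to the lowest (OHP2, listed at 0 in both CLF RIP libraries) at the bottom. Points at 0 mark libraries in which the locus was listed at 0.

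The remaining abundant loci of the windows were protein-coding. The most abundant on chromosome 4 lay within UBQ10, a polyubiquitin gene, from 2718199 to 2718616, with 524 and 649 FPKM in the CLF RIP and 796 and 743 FPKM in the control RIP (adjusted p = 0.18). The groups did not overlap there, while the full UBQ10 locus had 507 and 470 FPKM in the CLF RIP and 539 and 477 FPKM in the control RIP, which overlapped (adjusted p = 0.71). LOX2, a lipoxygenase of jasmonate synthesis, had 285 and 286 FPKM in the CLF RIP and 208 and 227 FPKM in the control RIP (adjusted p = 0.10). The loci at GRP-3 and GRP3S, which encode glycine-rich proteins, passed as higher, with log2 fold changes of 0.92 ± 0.08 and 0.81 ± 0.07. LOX2, the full UBQ10 locus and the GRP loci were chosen after their values were seen.

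Noncoding RNAs were few among the tested loci. Of the 36 tested, 1 passed, AT1G36992, listed at 0 in the control RIP. An unadjusted p under 0.05 was found for 13 (36.1%), against 25.6% over all loci and 82 of 223 noncoding loci outside the windows (36.8%). The median log2 fold change was 0.28. The 2 with the highest mean, AT1G33615 and AT3G44765, were each high in 1 control RIP library alone (395 and 332 FPKM). AT2G15292 had 48.0 and 52.6 FPKM in the CLF RIP and 58.7 and 59.6 FPKM in the control RIP, and AT4G08035 had 59.0 and 54.2 FPKM in the CLF RIP and 40.9 and 39.1 FPKM in the control RIP. Neither passed (adjusted p = 0.37 and 0.17). These 4 were chosen after their values were seen.

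Libraries of a group were closer to each other than to the other group. In the windows 16.6% of tested loci differed by more than 2-fold between the CLF RIP libraries and 10.7% between the control RIP libraries, while 25.9% to 28.1% did so in pairs across groups. Over 305 unspliced loci with whole estimated reads, chi-square over its degrees of freedom was 1.69 for the CLF RIP pair, 1.57 for the control RIP pair and 4.76 to 5.09 across groups. Libraries of a group thus differed by more than counting error, and no 2 libraries matched closely enough to be counted as 1.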

How the data were processed

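Reads were trimmed and aligned to TAIR10 with Trimmomatic and TopHat2 2.0.10, tools and build named in the submitters' processing notes. The authors deposited 1 FPKM value per locus and library, but no source used here names the program behind it. The windows, members and gene lists were chosen with earlier results of these data known. Loci were joined by a mutual best reciprocal overlap of at least 0.8 in all pairs of libraries. A locus entered the test if 2 or more libraries gave it 1 FPKM or more. The test was limma 3.58.1 (R 4.3.3; lmFit, then eBayes with a trended and robust prior) on log2(FPKM + 1), which understates changes of low loci. The p-values were adjusted by Benjamini-Hochberg over all 15709 loci at a threshold of 0.05. Estimated reads came from the FPKM of 75 bp loci, the span and a fitted fragment length (mean 199.9 bp, SD 79.8 bp), and 90.9% of 3740 low values were whole within 0.1. Depth is otherwise unknown, and no interval was drawn from these reads. Names and classes came from the RefSeq table of TAIR10.1, and coordinates from the tables, counted from 1. Loci named by rule were the 5 with the highest mean, the top of each window, the 10 largest changes past the threshold per direction without overlap of groups, 5 silencing targets and a list of silencing genes. Simulated data served to check the fit, and a locus short of the threshold is not shown to be alike in both groups. Alternatives changed pseudocount, filter, scaling, joining, span, prior, block and libraries. Replicate numbers did not pair samples (correlation of deviations 0.02 over the tested loci). Tables and plots were made with matplotlib 3.10.9, scipy 1.17.1, pandas 2.3.3 and numpy 2.4.6 under Python 3.11.15.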

Additional observations from a re-analysis of the deposited data

How the results depend on the processing

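Of the 39 calls in the windows (19 higher, 20 lower), all rest on 2 libraries a group: leaving out any 1 library gave 0 higher and 0 lower (limma), inside and outside the windows, with the spread then taken from the other group's pair alone. Replicate numbers did not pair the samples, and the fit with the replicate number as a block gave 0 higher and 0 lower (323 at an unadjusted p under 0.05). Counts were 30 higher and 62 lower with no filter on low values (6 of these 92 among the 39), 5 and 8 with FPKM above 0 in all 4 libraries in place of the minimum (all 13 among the 39), and 5 and 2 without trend and robust prior. The shares called inside and outside the windows were 1.41% and 1.08% with no filter and 0.79% and 0.425% with FPKM above 0 in all 4. They were 0.464% and 0.232% without trend and robust prior. Without the mitochondrial insertion 12 were lower, and without loci that overlap another, chosen after seeing the data, 11 were higher. The median log2 fold change of 0.19 became 0.20 at a pseudocount of 0.5, 0.13 at a pseudocount of 5, 0.00 with no filter, 0.23 at a minimum of 5 FPKM, 0.16 with FPKM above 0 in all 4, 0.15 and 0.20 at reciprocal overlaps of 0.95 and 0.5, 0.20 at a span of at least 500 bp, 0.22 without the insertion, 0.11 without overlapping loci, and 0.18 to 0.23 with 1 library left out. It turned to -0.040 under quantile normalization and to -0.061 under median-of-ratios scaling, which by construction centre all loci near 0. The difference in the share of summed FPKM turned to -0.0552 points in joined loci, to -1.16 in joined loci without those over 10-fold apart (chosen after seeing the data) and to -0.612 in estimated whole reads, and it was 1.07 to 3.09 with 1 library left out. The difference in the share of detected loci was -0.913 to -0.882 with 1 library left out and below 0 in every alternative run. With 1 library left out, the log2 fold change ran from -0.66 to 10.6 for WOX4, from -0.37 to 11.7 for AT1G33170, from -4.17 to 7.81 for ACS3 and from -0.77 to 8.12 for AT3G44020, each high in a single library of a group. Of 545 values of 28 named loci under the alternatives, 144 fell short of the threshold, 1 newly passed and 5 turned direction. Depth limits the CLF RIP most, where 1 read on 300 bp is worth 2.45 and 2.46 FPKM.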
